A study of Mus musculus with 4 samples.

Results

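The reproducible weak regions of natural killer (NK) cell chromatin are places where DNase I cut a little more than the surroundings, in library after library, without ever reaching the shorter of the authors' peak lists. They were chosen on measured values, namely the peak lists of 4 DNase-seq libraries. Each library has a longer and a shorter peak list, and the rule that separates them is not stated. Touching peaks of the 4 longer lists were merged on the 19 autosomes, and a merged region was kept if at least 3 libraries had a peak in it and no library had a shorter-list peak overlapping it. This gave 910 weak regions among 75963 merged regions. They made up 2.55% of the 35744 regions with a peak in 3 or more libraries, and between 1.90% and 3.22% on each chromosome. The 34834 others of those 35744 are called other recurrent regions here. The 25705 regions with a peak in 1 or 2 libraries and no shorter-list peak are called unshared weak regions, and 14514 regions belong to no class named here.

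The 4 libraries formed 1 group of primary NK cells from adult female mice of the F1 strain B6CASTF1/J, aged 2 months, and the labels give no treatment. The labels number them as biological replicates 1 to 4 and give them 1 shared donor identifier, so the spread between libraries may be partly technical. Tissue and sort are not stated in the labels. Replicate 3 had the longest autosomal peak list, 67437 peaks, and replicate 4 the shortest, 35219, against 43014 in replicate 1 and 46244 in replicate 2. Read numbers are not stated, so depth is unknown.

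NK cells are innate lymphocytes that kill infected or transformed cells with granule proteins and death ligands and that secrete interferon gamma. DNase I cuts DNA where nucleosomes are displaced, mostly at promoters, enhancers and insulators, and a bound factor can leave a short protected stretch inside such a site, a footprint. CTCF is the insulator protein of vertebrates. Factors of the RUNX, ETS and T-box families are known regulators of NK cell genes.

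The sequences below show weak regions in which a footprint covers a motif match or recurs between libraries. Each is the central 150 bp of a weak region on the plus strand of mm10, read from the RefSeq GRCm38.p6 genome, which has the same coordinates. In the first 3, capitals mark a motif match that lay wholly inside a footprint, in 2 libraries for CTCF and in 1 library for T-box and AP-1. Other motif matches are not marked, among them a CTCF match in the Snai1 window and a T-box match in the Gpr18 window. No match to RUNX, IRF or NRF1 in a weak region lay in a footprint in any library, and such matches were few. In the last 3, which were chosen after their values were seen from weak regions with a footprint in all 4 libraries, capitals mark bases inside a footprint in at least 3 libraries. Most of the 16 such windows examined away from promoters and UTRs held no such base, so these 3 are not typical. The sequences lie, in order, at chr14:121928516-121928665 (in an intron, nearest the 5′ end of Gpr18), chr2:167532246-167532395 (intergenic, nearest Snai1), chr2:79056314-79056463 (intergenic, nearest Ube2e3), chr4:154925514-154925663 (intron, nearest Tnfrsf14), chr6:65126217-65126366 (intron, nearest Hpgds) and chr13:21917146-21917295 (intergenic for protein-coding genes, nearest Zfp184).
Gpr18 region, CTCF match: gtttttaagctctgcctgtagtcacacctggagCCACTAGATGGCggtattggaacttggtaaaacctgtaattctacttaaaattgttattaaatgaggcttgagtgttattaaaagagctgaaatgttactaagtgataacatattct
Snai1 region, T-box match: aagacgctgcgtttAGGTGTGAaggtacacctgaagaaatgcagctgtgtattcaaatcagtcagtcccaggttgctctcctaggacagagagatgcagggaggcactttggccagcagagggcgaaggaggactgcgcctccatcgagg
Ube2e3 region, AP-1 match: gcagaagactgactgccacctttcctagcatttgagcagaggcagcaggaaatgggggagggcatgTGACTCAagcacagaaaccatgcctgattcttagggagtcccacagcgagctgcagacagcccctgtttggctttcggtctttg
Tnfrsf14 region, footprinted bases: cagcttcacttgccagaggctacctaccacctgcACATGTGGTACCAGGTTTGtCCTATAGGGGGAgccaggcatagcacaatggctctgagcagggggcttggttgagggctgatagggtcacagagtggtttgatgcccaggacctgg
Hpgds region, footprinted bases: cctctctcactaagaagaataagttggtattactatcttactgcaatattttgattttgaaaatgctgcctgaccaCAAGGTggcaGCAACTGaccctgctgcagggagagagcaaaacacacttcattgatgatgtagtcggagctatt
Zfp184 region, footprinted bases: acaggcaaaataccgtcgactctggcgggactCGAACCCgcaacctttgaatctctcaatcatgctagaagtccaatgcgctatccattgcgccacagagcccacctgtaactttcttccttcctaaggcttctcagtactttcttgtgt

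The Gpr18 region, near a gene for a G protein-coupled receptor, had signals of 1.08, 1.43 and 1.36 in replicates 1 to 3 and no peak in replicate 4. In the Tnfrsf14 region, near the gene of the herpesvirus entry mediator, a receptor of the TNF receptor family, 31 of the 150 bases lay in a footprint in at least 3 libraries and 15 in all 4. Its signals were 0.999, 0.977, 1.00 and 0.654 in replicates 1 to 4. The Zfp184 region holds a tRNA gene for arginine, annotated by RefSeq as n-TRtct3 at chr13:21917162-21917247 on the minus strand. There 7 bases of the gene lay in a footprint in all 4 libraries, and the signals were 0.494, 0.564, 0.573 and 0.663. It was the only tRNA gene of 386 on the autosomes that overlapped a weak region. A tRNA gene was present in 0.11% of weak regions, against 0.51% of other recurrent, 0.039% of unshared weak and 0.27% of all regions.

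The rule leaves out shorter-list peaks, whose median signal in each library was above that of longer-list peaks overlapping none of them. The signal is therefore described here without a test. Each peak carries 1 signal value from the authors, whose unit is not stated and whose scale may differ between libraries. Classes are therefore compared within a library, and the signals of 1 region in several libraries are listed without ranking the libraries. In replicate 1 the median signal of weak regions was 0.541, against 0.458 in unshared weak regions and 1.36 in other recurrent regions. In replicate 2 the medians were 0.564, 0.473 and 1.48 in the same order of classes. In replicate 3 they were 0.449, 0.382 and 2.08, and in replicate 4 they were 0.519, 0.394 and 1.30. Weak regions thus lay closer to the unshared weak regions than to the other recurrent regions in every library. The median of weak regions was 0.397, 0.381, 0.215 and 0.400 times that of other recurrent regions in replicates 1 to 4, lowest in replicate 3.

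**Figure D1:**
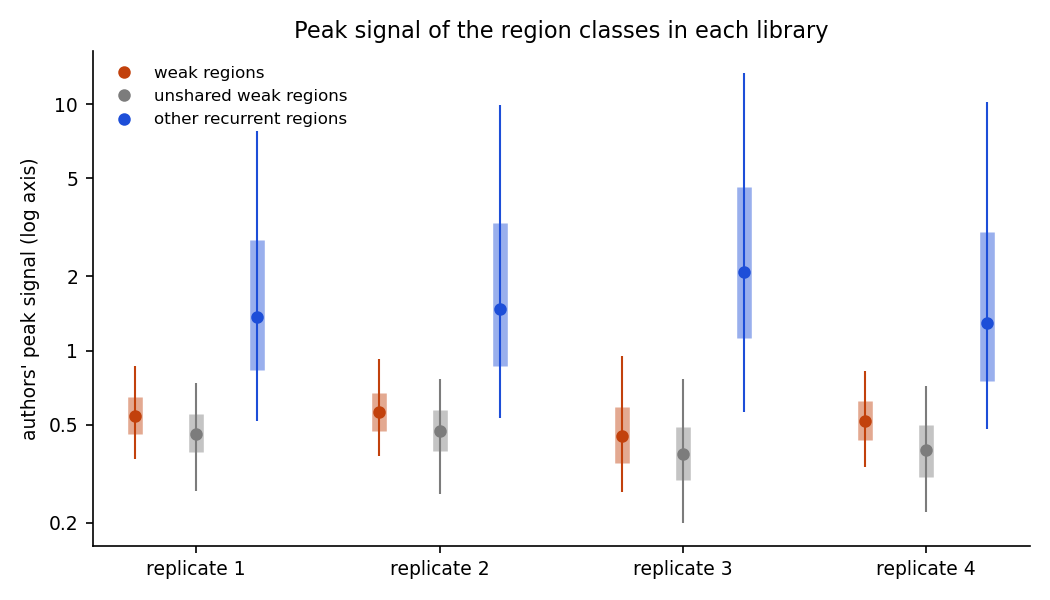
Authors' peak signal (log axis) in weak, unshared weak and other recurrent regions in each of the 4 libraries, with the median as a point, the middle 50% of the regions as a bar and the 5th to 95th percentile as a line. Medians of weak regions sit between 0.449 and 0.564, those of other recurrent regions between 1.30 and 2.08.

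Weak regions were also narrow, with a median width of 211 bp, against 107 bp in unshared weak regions and 260 bp in other recurrent regions. Among themselves they kept some order. For 2 libraries with a peak in the same weak region, the Spearman correlation of the signals ran from 0.648 to 0.711 over the 6 pairs of libraries, on 239 to 794 regions per pair. In other recurrent regions, whose signals span a wider range, it ran from 0.885 to 0.956. These correlations are across regions and describe the 4 libraries.

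The limit of the rule is not a limit of signal. The weak regions with the highest listed signals, whatever the library, were one near H2-Q7, a nonclassical MHC class I gene, with 1.65 in replicate 3, one near the homeobox gene Shox2, with 1.60 in replicate 2, and one near AW822073, with 1.51 in replicate 4. Just outside, among other recurrent regions with a shorter-list peak in 1 library alone, the lowest signals in that library were 0.247 near Vmn1r2 in replicate 1 and 0.291 near Stoml3 and near Phtf2, both in replicate 3. Other recurrent regions with a shorter-list peak in 1 library numbered 3860, and in 3312 of them that library was replicate 3. All peaks of the shorter lists held a base with an FDR below 0.001. Bases that low were also present in 83, 135, 166 and 34 of the weak regions with a peak in replicates 1 to 4, which is 10.7%, 15.7%, 19.6% and 9.07% of them.

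Most weak regions were seen in exactly 3 libraries. Of the 910, 123 had a peak in all 4, while 136 lacked one in replicate 1, 51 in replicate 2, 65 in replicate 3 and 535 in replicate 4, the library with the fewest peaks. Peaks in all 4 libraries were found for 13.5% of weak regions and for 75.7% of other recurrent regions. Where replicate 4 had no peak, 31 of the 535 weak regions (5.79%) still held a base that its FDR list gives below 0.05, against 12.8% of the 6383 other recurrent regions without a peak in that library.

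Whether a weak region recurs was examined in data the choice had not used. Weak regions were chosen again in 3 libraries, requiring a peak in each of the 3 and no shorter-list peak in any, and were looked up in the fourth. With replicate 1 left out, 142 of 280 weak regions had a peak there (50.7%), against 10.3% of unshared weak regions and 95.5% of other recurrent regions, and 52.2% of all regions of the 3 libraries. With replicate 2 left out the share was 77.4% (182 of 235), against 14.8% and 97.7%, and 55.9% of all regions. Replicate 3 gave 92.2% (802 of 870), against 51.6% and 99.1%, and 79.5% of all regions. Replicate 4 gave 21.8% (149 of 684), against 4.18% and 80.5%, and 42.0% of all regions. The weak regions therefore came back more often than the unshared weak regions in each library, but above the share of all regions in replicates 2 and 3 alone. By the choice itself, weak regions had a peak in all 3 choosing libraries and unshared weak regions in 1 or 2. The direction of that difference was therefore likely beforehand, and its size is the description given here.

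**Figure D2:**
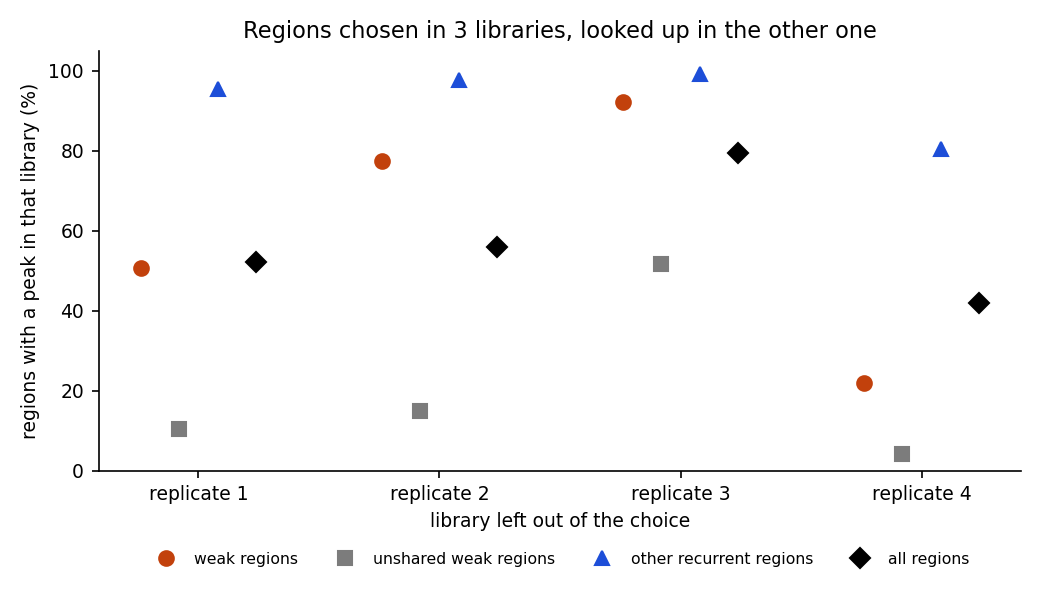
Share of regions with a peak in the library left out of the choice, for weak, unshared weak, other recurrent and all regions. Weak regions range from 21.8% in replicate 4 to 92.2% in replicate 3 and lie between unshared weak and other recurrent regions each time.

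The mean share was 60.5% ± 31.0 in weak regions, against 20.2% ± 21.4 in unshared weak regions and 93.2% ± 8.59 in other recurrent regions (SD, n = 4 libraries). The difference was 40.3 points ± 18.4 from unshared weak regions, positive in 4 of 4 libraries, and -32.7 points ± 23.4 from other recurrent regions, negative in 4 of 4. In a two-sided exact sign-flip permutation test over the 4 libraries p was 0.125 for each, the smallest value that 4 libraries allow, and 0.15 after Benjamini-Hochberg adjustment over the 6 comparisons of this family. With this test no comparison of 4 libraries can therefore pass 0.05, and the libraries share most regions, so their values are not independent. The direction against unshared weak regions was also likely from the choice, so that p adds little.

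The library left out also showed how many of these regions stayed weak. A shorter-list peak was present there in 7.86%, 26.0%, 78.5% and 3.95% of the weak regions chosen without replicate 1, 2, 3 and 4. Regions found in this way lie outside the 910. Of the 870 weak regions chosen without replicate 3, 183 overlapped 1 of the 910, while 255 of the 280 chosen without replicate 1 did, 169 of the 235 without replicate 2 and 656 of the 684 without replicate 4. Of the 910, 28.0%, 18.6%, 20.1% and 72.1% were thus found again without replicate 1, 2, 3 and 4, fewest without replicates 2 and 3.

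By position, 269 of the weak regions (29.6%) lay within 1 kb of the annotated 5′ end of a protein-coding gene, here called promoters, against 35.4% of other recurrent regions and 26.2% of all merged regions. A further 296 lay in introns, 269 between genes, 41 in coding exons and 35 in UTRs. The coding exon share was 4.51%, against 2.07% in other recurrent regions and 3.42% in unshared weak regions. Weak regions covered a 5′ end itself less often than other recurrent regions and more often than the remaining classes. Of the 910, 60 (6.59%) spanned one, against 22.1% of other recurrent regions, 1.13% of unshared weak regions and 2.30% of the regions of no named class. Away from promoters, 14 of 641 weak regions (2.18%) lay up to 1 kb from the start of a pseudogene, against 1.13% of other recurrent regions, and 27 (4.21%) lay as near to the start of a long non-coding RNA gene, against 4.69%. At least 50% of the window was repeat sequence in 6.59% of weak regions, 3.33% of other recurrent regions and 11.6% of unshared weak regions.

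Counted over peaks in each library, the promoter share was 27.7%, 29.6%, 28.7% and 36.1% in weak regions of replicates 1 to 4, against 36.4%, 36.0%, 36.2% and 40.7% in other recurrent regions. The difference was -6.82 points ± 1.75, negative in 4 of 4 libraries (exact sign-flip permutation p = 0.125, adjusted 0.15). It was -23.4 points among the 3 other libraries when replicate 3 was not used, where the weak class is largely another set, and -10.3 points without replicate 4. Counted over regions at matched mean signal, the promoter share was higher in weak than in other recurrent regions. It was 35.2% against 29.7% between 0.3 and 0.5, 25.9% against 22.8% between 0.5 and 0.7, and 20.9% against 19.4% between 0.7 and 1. Those ranges were chosen after the data were seen. In regions with a peak in all 4 libraries it was lower, 30.9% against 41.3%. In those lacking a peak in 1 library it was higher, whichever that was, as 24.9% against 14.2% without replicate 4. GC content of the central 150 bp was 57.1% ± 1.93 in weak regions and 58.1% ± 0.915 in other recurrent regions (exact permutation p = 0.25, adjusted 0.25). Its difference of -0.98 points turned to 0.39 without replicate 1, to 0.58 without replicate 2 and to 0.33 away from promoters.

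Footprints were present in weak regions, but in fewer of them. Footprints are called from the same alignments as the peaks, so they are given as a description. Of the peaks in weak regions, 55.6%, 52.4%, 59.2% and 55.0% held a footprint in replicates 1 to 4, against 84.7%, 86.5%, 92.0% and 86.2% in other recurrent regions. The means were 55.6% ± 2.82 in weak and 87.3% ± 3.20 in other recurrent regions, and no value of one class overlapped the other. Unshared weak regions, which are narrower, had 41.1% ± 6.27. The share of bases inside a footprint was 3.00% to 4.09% in weak regions, against 3.38% to 4.48% in unshared weak and 11.3% to 16.2% in other recurrent regions.

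**Figure D3:**
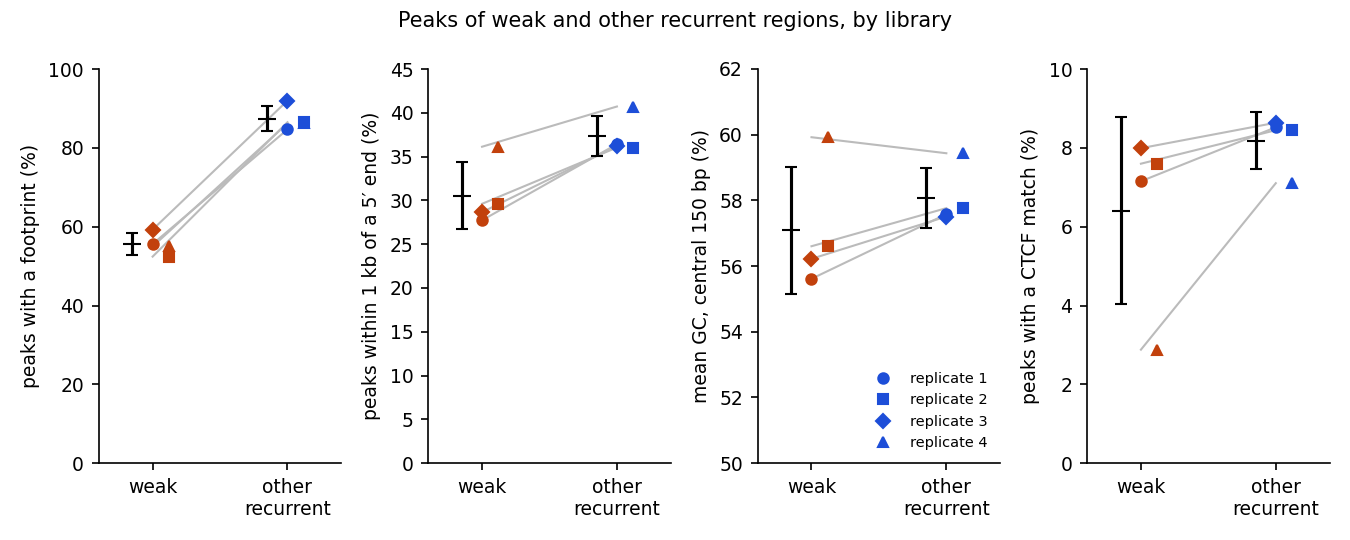
Peaks of weak regions and of other recurrent regions in each library, as the share with a footprint, the share within 1 kb of a 5′ end, the mean GC content (axis from 50%) and the share with a CTCF match. Lines join the 2 values of a library, and black marks give the mean ± SD over 4 libraries. Footprint shares are 52.4% to 59.2% in weak and 84.7% to 92.0% in other recurrent regions.

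A footprint in 3 or more libraries was found in 273 weak regions (30.0%), against 84.0% of other recurrent regions and 39.1% of all merged regions. Footprints outside a library's own peaks were found in at most 2 weak regions per library, so this count can hardly exceed the number of libraries with a peak. At matched signal the gap was smaller. Among regions with a mean signal between 0.3 and 0.5, 18.7% of 406 weak regions had a footprint in 3 or more libraries, against 26.5% of 676 other recurrent regions. Between 0.5 and 0.7 the shares were 35.7% of 347 weak and 49.96% of 3489 other recurrent regions, and between 0.7 and 1 they were 45.7% of 129 and 68.9% of 6269. The weak regions of these ranges were narrower, with median widths of 211 to 213 bp, against 260 to 268 bp. The ranges were chosen after the data were seen.

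The 4 weak regions with the highest mean signal among the 26 with a footprint in all 4 libraries lay near AW822073, Pdgfb, Shox2 and Ncf1. At Pdgfb, which encodes a platelet-derived growth factor chain, an intronic region at chr15:80012674-80013004 had signals of 0.881, 0.997, 1.46 and 0.990 in replicates 1 to 4. At Ncf1, which encodes a cytosolic subunit of the phagocyte NADPH oxidase, the region chr5:134229555-134229760 covers the 5′ end, with 0.611, 1.21, 1.05 and 1.01. The regions near AW822073 and Duxf3, a Dux homeobox gene, lie in a cluster of similar gene copies on chromosome 10, so their reads may be shared between copies.

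Weak regions held fewer motif matches than other recurrent regions, counted for 16 motifs on both strands of the central 150 bp. The letters searched were TGTGGTT for RUNX, CNGGAAGT for ETS, AGGTGTGA for T-box, TGANTCA for AP-1, CACCTG for the E-box, TTCNNNGAA for STAT, ATGCAAAT for the octamer, GCGCNTGCG for NRF1, GGGGCGGGG for the GC box, CCAATCA for the CCAAT box, TGACGTCA for CRE, AAGATGGCG for YY1 and CTTTGAT for TCF1 and LEF. CTCF, IRF and EBF were searched by their consensus, and an E-box match can overlap a T-box match. At least 1 of the 16 was present in 38.6% of weak regions, against 50.6% of other recurrent regions, 39.8% of unshared weak regions and 46.5% of all regions. These counts describe letters in the window and carry no test.

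Shares of single motifs were lower in weak than in other recurrent regions for 11 of the 16 and higher for 5. RUNX matches were present in 2.86% of weak regions, against 6.03% of other recurrent and 7.23% of all regions. ETS matches were present in 4.07%, against 7.89% and 6.88%, and T-box matches in 0.66%, against 1.22% and 1.38%. AP-1 matches were present in 3.74%, against 5.16% and 6.25%. By the ratio of the 2 shares, motifs typical of CpG-rich promoters were lowest in weak regions. NRF1 was at 0.66% of weak, 4.05% of other recurrent and 2.14% of all regions, the GC box at 1.87%, 5.83% and 3.44%, and the CCAAT box at 1.32%, 3.68% and 2.57%. CRE was at 0.22%, 1.40% and 0.83%, and YY1 at 0.11%, 0.80% and 0.49%. Other motifs ran the other way or differed little. The E-box was at 15.8%, 13.3% and 13.8%, STAT at 3.96%, 3.48% and 3.59%, and the octamer at 0.99%, 0.74% and 0.65%. IRF was at 1.54%, 1.87% and 2.05%, EBF at 0.55%, 0.50% and 0.49%, and TCF1 and LEF at 1.87%, 1.51% and 1.82%.

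**Figure D4:**
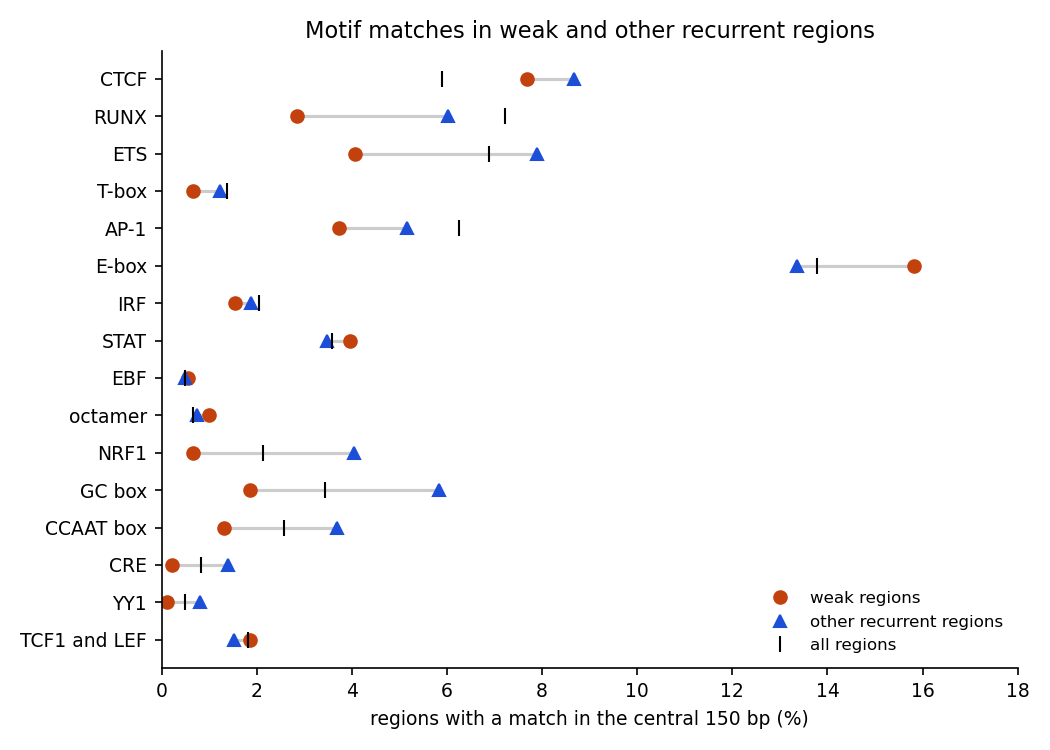
Share of regions with a motif match in the central 150 bp, for weak regions, other recurrent regions and all merged regions. The E-box is at 15.8% of weak and 13.3% of other recurrent regions, RUNX at 2.86% and 6.03%, and NRF1 at 0.66% and 4.05%.

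At promoters alone the counts of weak regions are small. Among the 269 weak regions at promoters, 5 (1.86%) held an ETS match, against 8.51% of other recurrent and 3.17% of unshared weak regions at promoters. NRF1 was at 2 (0.74%), against 9.08% and 1.03%, and the GC box at 5 (1.86%), against 12.3% and 3.21%. For these 3 motifs weak regions at promoters lay nearer to the unshared weak than to the other recurrent regions. The weak regions at promoters had a mean GC content of 61.9%, against 64.1%, and a mean of 9.93 CpG dinucleotides per window, against 12.5. Away from promoters, RUNX was at 3.43% of weak and 8.27% of other recurrent regions.

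Over all library patterns together, CTCF matches were nearly as frequent in weak as in other recurrent regions. A match was present in 70 of the 910 (7.69%), against 8.68% of other recurrent, 2.76% of unshared weak and 5.90% of all regions. Of those 70, 68 lay away from promoters, which is 10.6% of such weak regions, against 12.8% of such other recurrent regions. The matches followed the library pattern. Of the 535 weak regions without a peak in replicate 4, 59 held a match (11.0%), whereas 0 of the 65 without a peak in replicate 3 did. If regions are taken as independent, 0 of 65 allows a share of up to 4.62%, an approximate 95% limit. In other recurrent regions the shares were 15.1% of the 6383 without replicate 4 and 0 of the 233 without replicate 3. Counted over peaks, CTCF shares were 7.15%, 7.60%, 7.99% and 2.88% in weak regions of replicates 1 to 4, against 8.52%, 8.45%, 8.64% and 7.10% in other recurrent regions. The mean difference was -1.77 points ± 1.66, negative in 4 of 4 libraries (exact sign-flip permutation p = 0.125, adjusted 0.15). It was -0.30 points without replicate 4 and between -3.83 and -3.52 points without each of the others.

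Where a weak region held a CTCF match, the match itself was rarely footprinted. It lay wholly in a footprint in 0 of 65, 5 of 69, 8 of 70 and 0 of 11 matches in peaks of replicates 1 to 4. In other recurrent regions this was so for 56.2%, 64.9%, 79.0% and 47.4% of matches. For ETS the mean share was 0.66% ± 1.32 in weak and 13.6% ± 3.38 in other recurrent regions, and for NRF1, with at most 6 weak regions, it was 0% in weak and 76.2% ± 3.38 in other recurrent regions (SD, n = 4 libraries). For AP-1 it ran from 0% to 7.14% over the libraries in weak and from 3.19% to 6.38% in other recurrent regions. T-box had 6.25% ± 12.5 in weak regions, from 1 of 4 matches in replicate 1 and 0 of the matches elsewhere, and 5.51% ± 3.33 in other recurrent regions. RUNX and IRF had 0% in weak regions, against 8.93% ± 6.15 and 6.60% ± 5.46 in other recurrent regions. Those weak regions held 12 to 25 RUNX and 6 to 14 IRF matches in peaks of a library. With so few matches, 0% does not show that footprints are absent. The signal of the 2 classes differs as given above, and its part in these shares was not tested.

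Weak regions at gene promoters touched 278 of 20807 autosomal protein-coding genes (1.34%). For 167 of these genes an other recurrent region lay at the same promoter, and for 111 the weak region was the only recurrent one. The highest mean signals among those 111, named after their values were seen, belonged to Lyl1, a blood transcription factor gene, Tbc1d2b, Shox2, Ncf1 and Tnfrsf1a, the gene of TNF receptor 1. At Lyl1, chr8:84701343-84701762, the signals were 1.06, 1.24 and 1.03 in replicates 2 to 4, and replicate 1 had no peak. At Tnfrsf1a, chr6:125349630-125349880, they were 0.858, 0.806 and 1.05 in replicates 1 to 3, and replicate 4 had no peak. Plaur, the urokinase receptor gene, and Fgr, a Src-family kinase gene, were also among the 111, with mean signals of 0.831 and 0.827 over the 3 libraries with a peak.

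Among the 26 NK receptors and adaptors, 1 gene had a weak region at the promoter, where the share over all genes is 1.34%. It was Tyrobp, which encodes the signalling adaptor DAP12. Its weak region, chr7:30412947-30413326, centred at -623 bp from the 5′ end, had signals of 1.07, 1.15 and 0.759 in replicates 2 to 4 and no peak in replicate 1. An other recurrent region lay at this promoter too, and 58.7% of the window was repeat sequence. Cytotoxic effectors and NK transcription factors had no weak region at a promoter, and at a share of 1.34% fewer than 1 would be found in lists of 22 and 20 genes. An other recurrent region lay at the promoter of 15 of the 22 and 13 of the 20, against 50.5% of all genes.

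Promoters of a few genes listed for other cell types also held weak regions. They were 2 of 22 B cell genes, 1 of 21 T cell genes and 1 of 16 ILC2 and ILC3 genes. Among stromal, endothelial and epithelial genes it was 1 of 18, and the myeloid, erythroid and housekeeping lists had 0. The share over all genes is 1.34%, so these small counts describe single genes. Among B cell genes, Cd79b, which encodes a chain of the B cell receptor complex, had 0.588, 1.12 and 0.894 in replicates 1, 2 and 4 at chr11:106314441-106314698 and no peak in replicate 3. Cd72, a B cell co-receptor gene, had 0.717, 0.936 and 0.590 in replicates 1 to 3 at chr4:43454573-43454780 and no peak in replicate 4. Cd3g, which encodes a chain of the T cell receptor complex, had 0.505, 0.534 and 0.598 in replicates 1 to 3 at chr9:44980421-44980565. Epcam, an epithelial adhesion gene, had 0.411, 0.443 and 0.404 in replicates 1, 2 and 4. None of these 4 promoters had an other recurrent region. At Ltb, which encodes lymphotoxin beta and stood in the ILC2 and ILC3 list, the region chr17:35194593-35195176 had 0.846, 0.906 and 1.26 in replicates 1 to 3, beside an other recurrent region. The B cell list had an other recurrent region at 9 of 22 promoters and the T cell list at 8 of 21, against 57 of 92 in the 4 NK lists and 50.5% of all genes. Whether B or T cells contributed to these peaks was not tested.

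**Figure D5:**
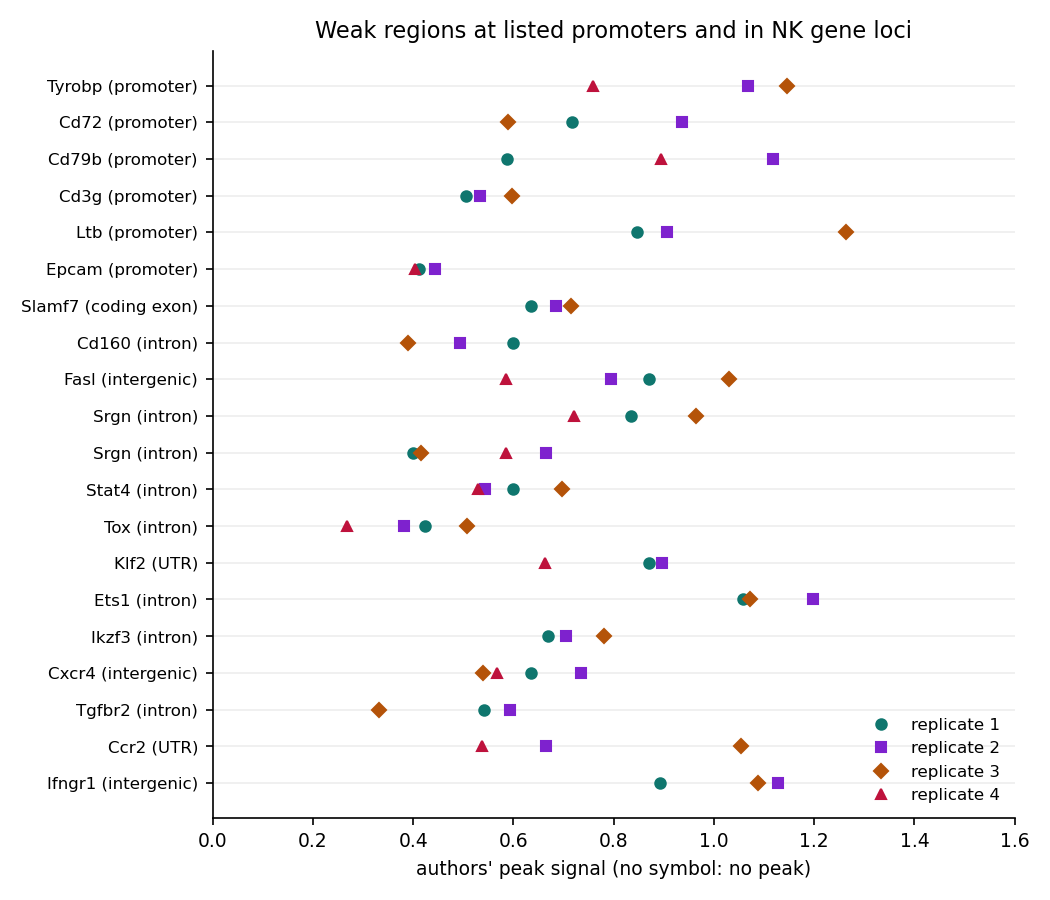
Authors' peak signal of weak regions at the promoters of listed genes (upper 6 rows) and in the loci of NK list genes, with 1 symbol per library and none where the library had no peak. Values run from 0.269 at Tox in replicate 4 to 1.26 at Ltb in replicate 3.

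In gene loci, taken as the gene with 25 kb of flank at each end, 17 of the 910 weak regions (1.87%) lay at a gene of the 4 NK lists, against 1.52% of other recurrent and 1.07% of unshared weak regions. Without replicate 3 the share of weak regions was 3.45%, and without replicate 2 it was 2.98%. By list, 3 weak regions (0.33%, against 0.27% of other recurrent regions) lay at NK receptors and adaptors, and 4 (0.44%, against 0.36%) at cytotoxic effectors. NK transcription factors held 5 (0.55%, against 0.46%), and cytokine receptors and trafficking genes held 5 (0.55%, against 0.43%). The B cell list held 6 (0.66%, against 0.26% of other recurrent regions), the erythroid and megakaryocyte list 3 (0.33%, against 0.12%), and the T cell and the myeloid lists 1 each (0.11%, against 0.21% and 0.24%). Stromal, endothelial and epithelial genes held 1 (0.11%, against 0.13%), the ILC2 and ILC3 list 2 (0.22%, against 0.17%) and housekeeping genes 2 (0.22%, against 0.27%). These small counts describe where the regions lie.

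Srgn, which encodes the granule proteoglycan serglycin, was the NK list gene with the most weak regions, 2, beside 9 other recurrent regions. The stronger, chr10:62500977-62501174, which lies nearer to the 5′ end of Vps26a, had 0.834, 0.963 and 0.721 in replicates 1, 3 and 4 and no peak in replicate 2. The weaker, chr10:62541644-62541910, had a peak in all 4 libraries, with 0.400, 0.665, 0.415 and 0.586. The next NK list genes had 1 weak region each, led by Stat4, which mediates interleukin-12 signals, with 13 other recurrent regions in its locus, and by Tgfbr2 and Tox, with 11 each. The Stat4 region, in an intron at chr1:52039279-52039500, had 0.599, 0.544, 0.698 and 0.529 in replicates 1 to 4. The Tox region, also intronic, had 0.423, 0.383, 0.507 and 0.269 and no footprint.

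Near Fasl, which encodes a death ligand, the region chr1:161809086-161809646 lay 20.6 kb from the 5′ end on the upstream side. It had 0.870, 0.795, 1.03 and 0.586 in replicates 1 to 4 and a footprint in each library, none of them in the central 150 bp. Near Cxcr4, a chemokine receptor gene, the region chr1:128611931-128612160 had 0.635, 0.735, 0.540 and 0.567 and also a footprint in each. Its central 150 bp held a footprint in replicates 2 and 4 alone. An intronic region of Ets1, which encodes an ETS factor, at chr9:32696747-32696991, had 1.06, 1.20 and 1.07 in replicates 1 to 3 and no peak in replicate 4. It was among the 6 weak regions with the highest mean signal over the libraries that had a peak, with those near H2-Q7, Duxf3, Gpr18, Dgka and AW822073. That order depends on which libraries had a peak, and Lyl1 followed with a mean of 1.108, against 1.109 at Ets1. The region in the locus of Ifngr1, the gene of an interferon gamma receptor chain, was centred 21692 bp from its 5′ end, and the 5′ end of Il22ra2 was nearer, 8218 bp from the region's edge. It had 0.893, 1.13 and 1.09 in replicates 1 to 3 and no peak in replicate 4.

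Weak regions seldom lay close together. The median distance from one to the next on a chromosome was 1.23 Mb, and 33 of them (3.63%) had the next within 25 kb. They lay near stronger sites about as often as those did themselves. The median distance to the nearest other recurrent region was 4724 bp for weak and 4380 bp for other recurrent regions, and 33.6% and 30.5% of them had one within 1 kb. At least 1 weak region lay in the locus of 1375 genes and at least 2 in the locus of 74. Gm20388, a gene model spanning 4485 kb with its flanks, held 5. AW822073, Dpf3, Duxf3, Gm4981, Hic2 and Jakmip1 held 3 each. Abhd17c, Alk and Ap1m2, the first by alphabet of the genes with 2, complete the 10. AW822073, Duxf3 and Gm4981 share theirs in the gene cluster on chromosome 10.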

How the data were processed

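Peaks, footprints and FDR values came from 4 DNase-seq libraries of 1 group. Per the deposited readmes, every file rests on filtered mm10 alignments of 1 library, with none pooled. Aligner, peak caller and footprint caller: not given in the sources used here. Each entry of the authors' peak lists has 1 signal value, and the deposited FDR list gives a false discovery rate (a q-value) below 0.05 for single bases. The deposited footprints carry a constant of 0.01, read as the authors' threshold, so no stricter set was made. Reads per library are not in the files, so signals and shares carry no counting interval for depth.

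Regions were merged and classed with Python 3.11.15, numpy 2.4.6 and pandas 2.3.3, with an overlap of 1 bp. Genes came from GENCODE vM21 and sequence from RefSeq GRCm38.p6, read with pysam 0.24.0. Both have the mm10 coordinates. Shares over regions have no error, shares over peaks give mean ± SD over libraries. The 6 comparisons used two-sided exact sign-flip permutation tests over libraries, with weak minus the other class. Merging, classing, the motif search, the FDR lookup and the sign-flip calculation were checked on simulated or hand-made input. The 6 comparisons themselves were not simulated. Members and gene lists were chosen with earlier results of these data known. Genes named were the 6 weak regions of highest mean signal, the 4 highest with a footprint in all 4 libraries, those at listed promoters, the 10 genes and the 4 NK list genes with the most weak regions, and the 3 regions on either side of the rule. A few items that these rules name are not reported here. Alternatives were other merging, library and FDR thresholds, other footprint, promoter and locus definitions, and leaving out each library.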

Additional observations from a re-analysis of the deposited data

Results flagged for a closer look

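Over 29 sets of 4 library values, 5 had 1 library far from the other 3. For independent, normally distributed values chance gives about 1 in 20. These sets are not independent, since several describe the same peaks of a library, so the 5 are not separate observations. The ratio of the median signal of weak regions to that of other recurrent regions was 0.215 in replicate 3, below the other 3 libraries. Replicate 4 stood apart 4 times. Its CTCF motif share was lowest in peaks of weak regions, 2.88%, and in peaks of other recurrent regions, 7.10%. Its promoter share, 40.7%, and its GC content, 59.4%, were the highest in peaks of other recurrent regions. Replicate 4 also had the fewest peaks and replicate 3 the most. Whether the length of the peak list has a part in these values was not tested.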

How the results depend on the processing

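Of 84 alternative values, 57 counted as unchanged, 24 moved and 3 changed direction. A difference was unchanged if it kept its direction, and the number of weak regions if it stayed within a fixed factor. Held-out and footprint shares of weak regions were judged by the SD over libraries. The other shares were judged by a 95% interval that takes regions as independent. The number of weak regions was 123 with a peak required in all 4 libraries, 3756 with 2 or more, 310 with only peaks that hold a base of FDR below 0.01, 2610 when a shorter-list peak had to cover 50% of the region, and 235 to 870 without each replicate. Their share among recurrent regions was then 0.464%, 8.42%, 0.955%, 7.30% and 0.863% to 3.25%. The footprint share of weak peaks was 65.9% with the stricter FDR. The promoter share was 20.4% within 500 bp, 41.9% with the 5′ end of any transcript and 18.9% to 36.1% without each replicate. The share in NK loci was 1.10% in gene bodies alone and 1.75% to 3.45% without each replicate. The GC difference changed direction away from promoters, to 0.33 points, and ran from -3.84 to 0.58 points without each replicate. The cause of these shifts was not tested. All 4 held-out, footprint and CTCF differences between weak and other classes kept the direction of their mean under every alternative run, as did the promoter difference. With the 5′ end of any transcript, however, the promoter difference was -3.16 points (exact permutation p = 0.25), no longer negative in all 4 libraries. No alternative run matched the classes by signal. At matched signal the promoter share was higher in weak regions, as given above, and the CTCF share was higher in the lowest range alone. The sign-flip test cannot reach a p below 0.125 over 4 libraries, or below 0.25 over 3, so sizes and directions are all that these alternatives show. The depth of the libraries is unknown, and a missing weak peak cannot be told from one below the caller's reach.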
